A study of Mus musculus with 5 samples.

Results

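The 6 genes described here, Myc, Mycn, Mycl, Max, Mxi1 and Mxd4, belong to the MYC-MAX network of transcription factors. They were taken by name; they are 6 of 21887 protein-coding genes of the mouse RefSeq annotation. Every peak that overlapped the gene or the 100 kb on either side was taken from 4 deposited peak lists, which gave 10 of 7458 TLX peaks in neural stem cells (NSC), 1 of 1436 TLX peaks in brain tumour stem cells (BTSC), 35 of 31266 H3K27ac peaks in NSC and 35 of 31597 H3K27ac peaks in BTSC. TLX is the orphan nuclear receptor encoded by Nr2e1. In both TLX groups the cells were mouse cultures that carried a tagged form, TLX-3xTY1, introduced by retrovirus, and the tag was precipitated with a TY1 antibody. Both H3K27ac groups were cells labelled not transduced, although the growth protocol given for every sample describes transduction with TLX-3xTY1, so whether they carried it is not settled by the labels. In these groups histone H3 acetylated at lysine 27, found at active promoters and enhancers, was precipitated. The remaining sample had no antibody and carried the empty vector MSCV-neo, and none of the 4 peak lists was its own. None of the 5 samples was a TY1 precipitation from cells without the tag, so the TLX peaks could not be set against one. Each group had 1 library, so no value below has a replicate check, no test was made, and a statement about a culture is a statement about its 1 library. The tagged TLX was expressed from a vector, and the tumour the BTSC came from is not described in the labels. Peak lists carry no read numbers, so the depth is unknown, and a peak missing from a list was only not called in that library. In cultures profiled in bulk, a mark on fewer cells and less of it per cell cannot be told apart. All positions are in mm10.

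MYC, MYCN and MYCL are related basic helix-loop-helix leucine zipper proteins that bind DNA as dimers with MAX and promote growth and proliferation. MAX also pairs with the MXD family, which recruits SIN3 corepressors and opposes MYC at the same E-box sites; MXI1 and MXD4 are members of that family. Myc and Mycn are known for their part in the expansion of neural progenitors, and genes of this family are amplified in some brain tumours.

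The promoters of the family show which of the network's own binding letters lie at the gene starts. The RefSeq promoter table (GRCm38.p6, the assembly of mm10) matched 5 of the 6 genes; Myc was not matched. The 4 promoters below are shown because a TLX peak lies over the start of Mycl, because Max and Mxd4 hold the E-box of MYC-MAX dimers, and because an inner start of Mxi1 holds the core letters of a TLX site. Each runs 5′ to 3′ in the direction of the gene, from 250 bases before the start to 20 bases after it, and capitals mark the motifs searched on both strands: AAGTCA (core of the TLX site), CACGTG (E-box), GGGCGG (GC box), CCAAT and TATAAA.
Mycl, chr4:122995681-122995950, plus strand: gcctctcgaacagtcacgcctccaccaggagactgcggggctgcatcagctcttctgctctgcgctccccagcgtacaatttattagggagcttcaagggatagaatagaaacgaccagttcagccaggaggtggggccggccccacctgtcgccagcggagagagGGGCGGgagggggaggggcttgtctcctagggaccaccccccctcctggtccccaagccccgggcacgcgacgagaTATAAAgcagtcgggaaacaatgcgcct
Max, chr12:76962229-76962498, minus strand: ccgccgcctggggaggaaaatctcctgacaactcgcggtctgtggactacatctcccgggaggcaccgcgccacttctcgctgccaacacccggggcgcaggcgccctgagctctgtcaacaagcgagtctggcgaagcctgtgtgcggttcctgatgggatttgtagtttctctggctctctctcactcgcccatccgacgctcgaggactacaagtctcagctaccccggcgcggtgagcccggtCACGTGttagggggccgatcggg
Mxi1 inner start, chr19:53329163-53329432, plus strand: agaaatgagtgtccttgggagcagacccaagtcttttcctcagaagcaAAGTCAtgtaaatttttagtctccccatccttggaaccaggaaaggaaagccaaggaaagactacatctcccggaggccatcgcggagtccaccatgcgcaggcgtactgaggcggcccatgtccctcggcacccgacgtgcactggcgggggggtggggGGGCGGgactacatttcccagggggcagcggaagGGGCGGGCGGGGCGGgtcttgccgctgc
Mxd4, chr5:34187691-34187960, minus strand: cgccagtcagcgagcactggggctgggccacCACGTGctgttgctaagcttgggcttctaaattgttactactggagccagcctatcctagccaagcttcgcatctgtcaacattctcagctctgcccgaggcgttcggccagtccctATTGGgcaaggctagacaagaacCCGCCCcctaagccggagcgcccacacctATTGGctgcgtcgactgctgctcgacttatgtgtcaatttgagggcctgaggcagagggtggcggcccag

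CACGTG was present in the Max and Mxd4 promoters and in no other matched promoter of the family. In Max it lay across the start itself, with its first base 3 bases before it, and in Mxd4 its first base lay 219 bases before the start. Of 32851 listed promoters, 6.57% held CACGTG in a stretch of this length. AAGTCA was found once in the family, 202 bases before the inner start of Mxi1 at 53329413, against 13.9% of all promoters; the other listed starts of Mxi1, at 53310506 and 53329695, did not hold it. GGGCGG, on either strand, was in the promoters of Mycn, Mycl, Mxd4 and all 3 starts of Mxi1 but not in that of Max, and 34.1% of all promoters held it; some of its matches at the inner Mxi1 start overlap. CCAAT was found in Mxd4, at 2 places, and TATAAA in Mycl, 8 bases before the start; 35.4% and 12.9% of all promoters held these. These matches describe letters and do not show binding.

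TLX peaks lay near 5 of the 6 genes in NSC and near 1, Myc, in BTSC. Over all protein-coding genes, 55.5% had an NSC TLX peak within 100 kb and 16.1% had a BTSC TLX peak. In NSC, 4 of the 6 genes had at least 2 peaks, against 29.5% of all genes, and 1 of 6, Myc, had at least 3, against 14.1%. Mxd4 had no TLX peak in either list. The NSC list was 5.19 times as long as the BTSC list, and with the NSC list cut to the same number of peaks by q, 2 NSC peaks remained, 1 near Myc and 1 near Max. Of the 10 NSC peaks, 5 lay inside 1 of the 6 genes. Of the 10, 1 was also in the BTSC list, against 15.8% of all NSC TLX peaks; the 1 BTSC peak was in the NSC list, as were 81.8% of all BTSC TLX peaks.

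**Figure D1:**
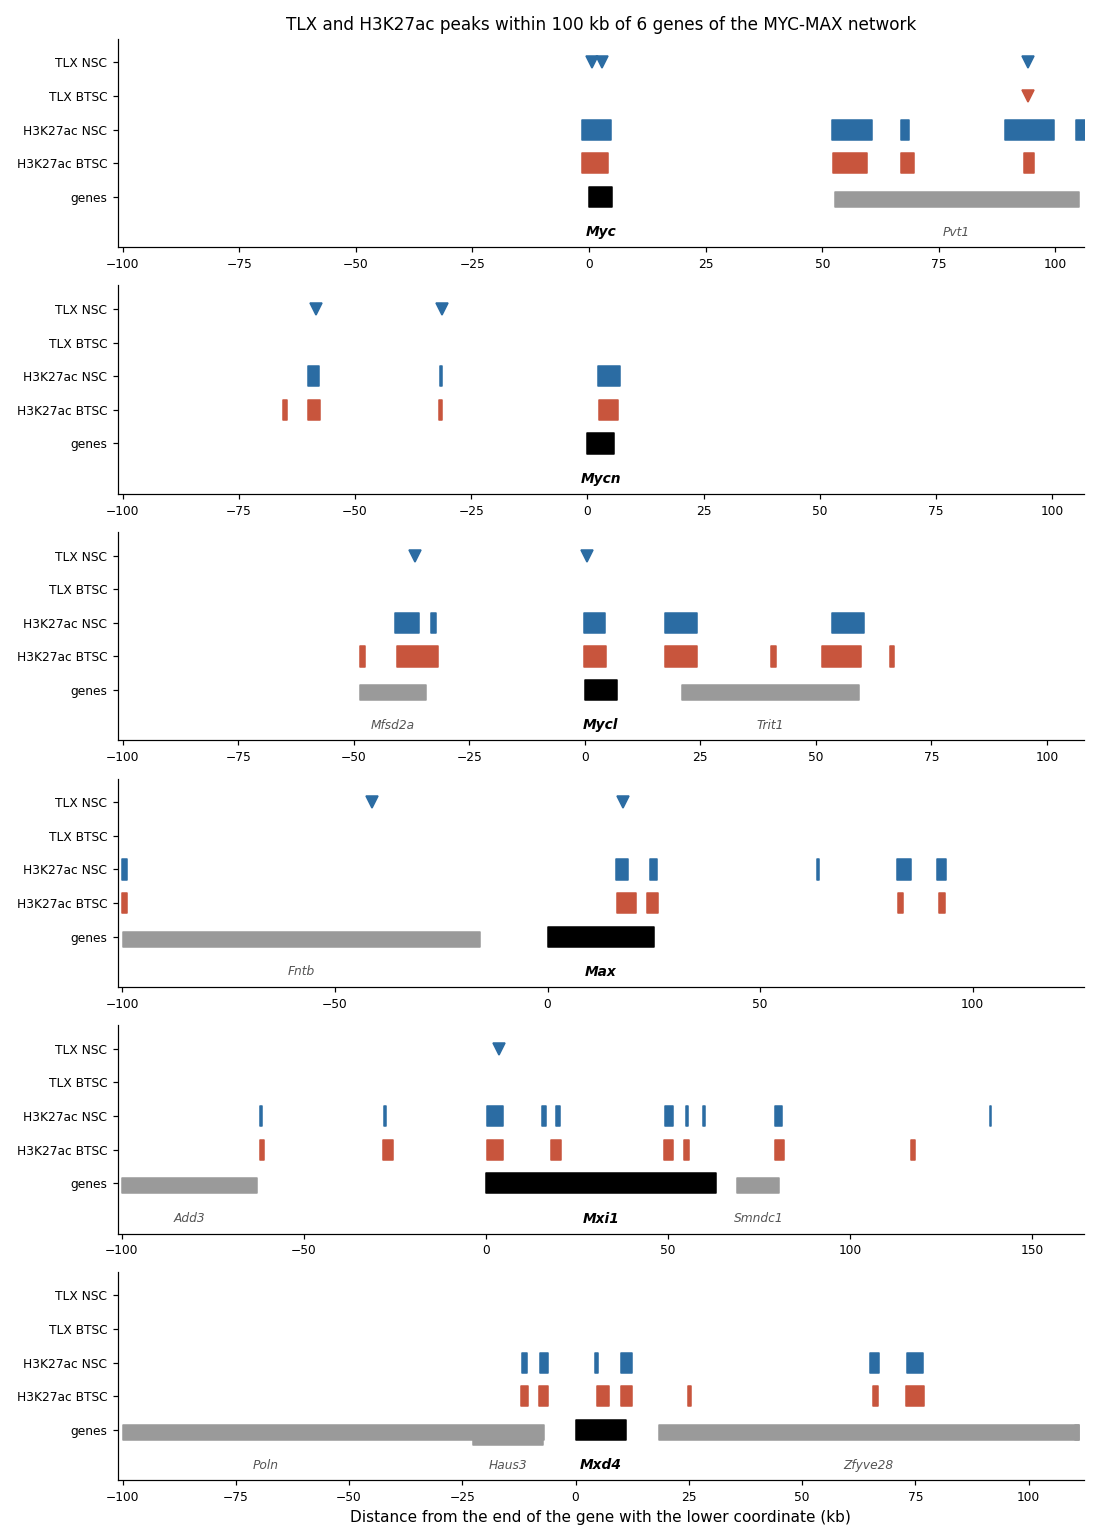
Peaks within 100 kb of each gene, with 1 panel per gene; the horizontal axis is the distance in kb from the end of the gene with the lower coordinate. Triangles mark TLX peaks and bars H3K27ac peaks (blue for NSC, red for BTSC, 1 library each), the gene is black, neighbouring coding genes and Pvt1 are grey and cut at the window. TLX triangles appear in 5 panels for NSC and in the Myc panel alone for BTSC.

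Myc, which encodes the best studied activator of the family, had the highest-ranking TLX peak of the 6 genes in NSC and the most H3K27ac-covered bp in NSC. The gene spans chromosome 15, 61985341 to 61990361. Its 3 NSC TLX peaks comprised 1 with a summit 609 bp inside the lower-coordinate end of the gene (61985757 to 61986312), 1 further inside (61987805 to 61988212) and 1 at 62078998 to 62079954, within the long noncoding RNA gene Pvt1. The first had a fold enrichment of 3.44 over the peak caller's background, an authors' value per peak as are all folds and q-values here, and ranked 7095 in the NSC list, where rank 1 has the strongest q. The second had a fold of 3.82 and ranked 6358. The Pvt1 site had a fold of 11.7 with a −log10 q of 42.5 and ranked 173. Thus the peaks inside Myc were among the weaker of their list and the Pvt1 site among the stronger.

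The Pvt1 site was the only TLX peak near the 6 genes that was in both lists. In BTSC it ran from 62078928 to 62079886, with a fold of 7.55 and a −log10 q of 16.2, and ranked 199. The summits of the peaks in the lists lay 94301 bp and 94308 bp from the lower end of Myc, and no other coding gene had an end nearer to them. Ranks from lists of unequal length and folds from separate libraries do not show a change between cultures.

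H3K27ac within 100 kb of Myc covered 27729 bp in the NSC list and 17882 bp in the BTSC list, a ratio of 1.55 of NSC over BTSC. The acetylated region over Myc itself was of similar extent, 6166 bp in NSC (61983780 to 61989945, fold 21.6) and 5622 bp in BTSC (61983848 to 61989469, fold 14.3). At the end of Pvt1 that faces Myc, at 62037986, acetylated regions were 8641 bp (NSC) and 7428 bp (BTSC) wide. Around the shared TLX site in Pvt1 the NSC region was 10516 bp wide, from 62074510 to 62085025, and the BTSC region 2098 bp, from 62078589 to 62080686; the fold there was 6.21 in the NSC list and 7.54 in the BTSC list. The difference between the cultures at Myc thus lay in the Pvt1 part: within 50 kb of the gene the lists covered 9064 and 8424 bp, and from 50 to 100 kb they covered 18665 and 9458 bp. In the next 50 kb, beyond the window, the NSC list covered 16209 bp and the BTSC list 4302 bp. Chromosome 15 as a whole had 1.08 times as many covered bp in BTSC as in NSC.

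Mycn, the family member known from neural progenitors and neuroblastoma, had TLX at a distance and a start region of low H3K27ac fold. It spans chromosome 12, 12936093 to 12941836, on the minus strand. Its 2 NSC TLX peaks lay past the end of the transcribed region, with summits 58179 bp (12877513 to 12878041, fold 5.55, rank 2472) and 31373 bp (12904464 to 12904955, fold 4.59, rank 4325) from the gene, and no BTSC TLX peak was listed closer than 11889628 bp. Both sites were acetylated in both cultures. The H3K27ac region around the farther one was 2375 bp wide in NSC (fold 4.37) and 2611 bp wide in BTSC (fold 6.42), and that around the nearer was 501 and 569 bp wide (fold 3.04 in either list).

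Over the Mycn start, H3K27ac was 4648 bp wide in NSC, with a fold of 4.07, and 4053 bp wide in BTSC, with a fold of 3.35. These start regions ranked 17091 and 20945 in their lists, the lowest ranks among the start regions of the 6 genes in both. H3K27ac covered 7524 bp (NSC) and 8096 bp (BTSC) of the window, close to the medians over all genes of 7835 and 8521 bp. A peak at 12870663 to 12871525 was in the BTSC list alone (fold 3.52).

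Mycl, which encodes the family member with the weakest transforming activity, had a TLX peak over its start in NSC. The gene spans chromosome 4, 122995588 to 123002490, on the plus strand, with its listed start at 122995931. The NSC peak at 122995894 to 122996402, which overlaps the end of the promoter shown above, had its summit 293 bp after the start, a fold of 4.21 and rank 5400. Another NSC peak lay inside Mfsd2a, a transporter of lipids, at 122958529 to 122958977, with a fold of 4.59 and rank 4325. The nearest BTSC TLX peak was 246386 bp away, nearest to Heyl.

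Acetylation over the Mycl start was nearly the same in both lists, 4552 bp with a fold of 11.3 in NSC and 4854 bp with a fold of 11.6 in BTSC. Over the whole window H3K27ac covered 24761 bp in NSC; in BTSC it covered 32326 bp, the largest BTSC value of the 6 genes. Most of the excess lay at the neighbouring genes. The region at Mfsd2a that held the TLX peak was 5183 bp wide in NSC and 8854 bp in BTSC, where it joined a region that the NSC list gave as a separate peak of 1097 bp, and the region near the upper end of Trit1, a gene of transfer RNA modification, was 6889 and 8393 bp wide. Weak peaks at Mfsd2a, inside Trit1 and beyond it were in the BTSC list alone, with folds from 2.45 to 2.69.

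Max, which encodes the shared partner of the MYC and MXD proteins, had TLX inside the gene in NSC. The acetylated region around that site was wider in the BTSC list. The gene spans chromosome 12, 76937269 to 76962323, on the minus strand. The NSC TLX peak at 76954775 to 76955499 had its summit 7174 bp after the start, a fold of 5.16 and rank 3088. H3K27ac around it was 2657 bp wide in NSC with a fold of 5.01 and rank 14812, and 4339 bp wide in BTSC with a fold of 11.7 and rank 4954. At the Max start the widths were 1750 and 2501 bp and the folds 10.2 and 9.25.

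The other NSC TLX peak of the Max window, at 76895780 to 76896220, lay inside Fntb, which encodes a subunit of protein farnesyltransferase. It had a fold of 6.59, a −log10 q of 16.6 and rank 1300, and was the only TLX peak near the 6 genes with no H3K27ac in either culture. No BTSC TLX peak was listed within 777112 bp of Max. In all, H3K27ac covered 11562 bp (NSC) and 10257 bp (BTSC) of the Max window. The direction depended on the window: within 10 kb of the gene the lists covered 4407 and 6840 bp, and from 50 to 100 kb they covered 6499 and 3417 bp, where a peak of 3407 bp in NSC was 1074 bp in BTSC (77019793 to 77020866).

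Mxi1, a repressor that competes with MYC for MAX, had 1 NSC TLX peak near its outer start. The gene spans chromosome 19, 53310128 to 53373293, on the plus strand, and has 3 listed starts, 1 outer and 2 inner. The peak at 53313350 to 53313935 had its summit 3082 bp after the outer start at 53310506, a fold of 3.82 and rank 6358, and lay inside the gene and the noncoding RNA gene Gm30541. It had the same fold and q as the second peak inside Myc, values that 292 peaks of the list share. Peaks of equal q take the same rank, and ties were not limited to weak peaks. In the NSC list 378 peaks share the fold and q found at rank 4325, and 10 share those of the Pvt1 site. No BTSC TLX peak was listed within 1749318 bp of Mxi1, and none of the NSC peaks lay at the inner start with the AAGTCA match.

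The acetylated regions called at the starts of Mxi1 differed between the lists. At the outer start H3K27ac was 4398 bp wide with a fold of 6.53 and rank 11465 in NSC, and 4557 bp wide with a fold of 11.6 and rank 5250 in BTSC. At the inner starts it was 880 bp wide in NSC, with a fold of 7.33 and rank 10194. In BTSC it was 2690 bp wide there, with a fold of 5.05 and rank 13808. The order of the starts by fold thus differed between the lists. These folds belong to called regions of unequal width from separate libraries, so they do not show a change in the use of the starts. The NSC region covered the inner start at 53329695 but not that at 53329413, while the BTSC region covered both. Further inside the gene a region was 2125 bp wide with a fold of 4.57 in NSC and 2413 bp wide with a fold of 7.41 in BTSC, and between Add3 and Mxi1 a weak region was 502 bp wide in NSC against 2632 bp in BTSC. H3K27ac covered 13189 bp (NSC) and 18517 bp (BTSC) of the window, a ratio of 1.40 of BTSC over NSC. The peak of highest fold in this window was at the neighbour Smndc1, a gene of RNA splicing, with folds of 18.8 in NSC and 16.6 in BTSC.

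Mxd4, a MAX partner associated with cells that leave the cycle, had no TLX peak within 100 kb in either list but a strongly acetylated start. The gene spans chromosome 5, 34176580 to 34187710, on the minus strand. The nearest TLX peak in both lists was the same site near Rnf4, 148120 bp away in NSC and 148148 bp in BTSC, with folds of 7.65 and 7.78. H3K27ac at the start, over the promoter with the E-box shown above, was 2421 bp wide with a fold of 16.0 and rank 2009 in NSC, and 2455 bp wide with a fold of 17.9 and rank 1394 in BTSC. In the BTSC list this was the strongest start region of the 6 genes; in the NSC list only that of Myc ranked higher. Inside the gene a weak region was 469 bp wide in NSC and 2641 bp in BTSC, and H3K27ac covered 11347 bp (NSC) and 14122 bp (BTSC) of the window. The widest region lay inside the neighbour Zfyve28, with 3553 and 3903 bp.

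**Figure D2:**
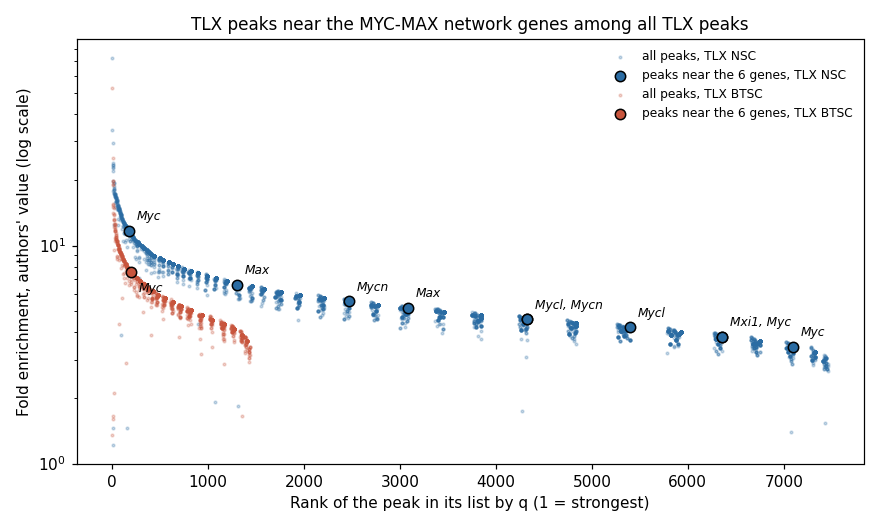
Each point is 1 TLX peak, with its rank by q within its own list on the horizontal axis and the authors' fold enrichment on a logarithmic vertical axis; blue is NSC, red BTSC, and outlined points are the peaks near the 6 genes. The Pvt1 site near Myc ranks 173 in NSC and 199 in BTSC, while the other 9 NSC peaks rank between 1300 and 7095.

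All 6 genes had H3K27ac within 1 kb of a start in both cultures, against 50.3% of all protein-coding genes. The part of this in their TLX counts was not tested. A TLX peak lay within 1 kb of a start of 2 of the 6 genes in NSC, Myc and Mycl, against 13.8% of all genes, and of 0 of 6 in BTSC, against 1.97%. For Myc either end of the gene counted as a start. By covered length within 100 kb, the order in NSC was Myc, Mycl, Mxi1, Max, Mxd4 and Mycn, and in BTSC it was Mycl, Mxi1, Myc, Mxd4, Max and Mycn. With 1 library per culture none of these steps can be set against a spread.

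A gene was counted as different between the lists when 1 covered at least 1.5 times as many bp as the other and either covered at least 1000 bp. On that rule 1 of the 6 genes, Myc, had more in NSC, against 11.7% of 18025 genes, and 0 of 6 had more in BTSC, against 17.8%. These counts changed with the window: Myc was not past 1.5-fold within 50 kb or 10 kb (log2 ratios of −0.11 and −0.13), while Mxd4 passed it towards BTSC within 50 kb (0.63) and when peaks were counted by the nearest gene end (0.82), and Max within 10 kb (0.63). At a −log10 q of at least 5, Mycn passed it towards NSC (−1.43). The log2 ratio of BTSC over NSC was −0.63 for Myc, −0.17 for Max, 0.11 for Mycn, 0.32 for Mxd4, 0.38 for Mycl and 0.49 for Mxi1. The median of the 6 was 0.21, and that over all genes was 0.13, so the whole distribution leaned to BTSC by about as much. For Myc, 9.34% of genes had a lower ratio, and for Mxi1 77.3% had. Over the 6 windows together the lists covered 96112 and 101200 bp, of which 76099 bp were shared; 31 of the 35 peaks of NSC (and 29 of the 35 of BTSC) had an overlapping peak in the other culture. Over all H3K27ac peaks these shares were 79.0% and 76.8%.

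**Figure D3:**
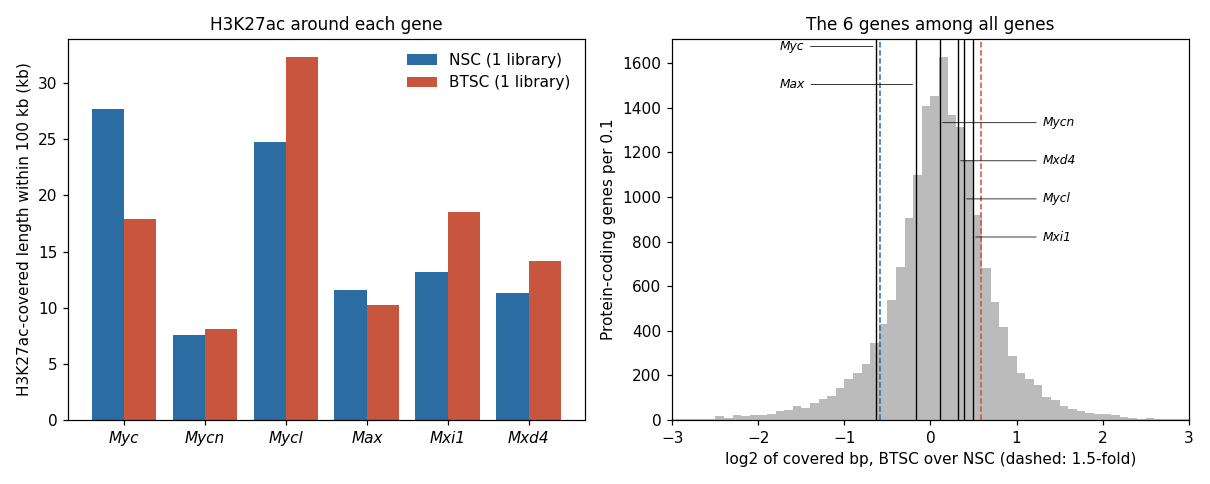
Left, H3K27ac-covered length in kb within 100 kb of each gene, with 1 bar per library (blue NSC, red BTSC) and no error bars because each group has 1 library. Right, the log2 ratio of covered bp, BTSC over NSC, for all protein-coding genes with a ratio, with the 6 genes as solid lines and 1.5-fold as dashed lines; Myc at −0.63 lies just past the dashed line on the NSC side.

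Of the 10 NSC TLX peaks near the 6 genes, 9 lay in H3K27ac of NSC, and the same 9 lay in H3K27ac of BTSC, although only 1 of them was a TLX peak in BTSC. Of all NSC TLX peaks, 91.6% lay in H3K27ac of NSC and 88.1% in H3K27ac of BTSC, so the count near the 6 genes was at the level of the whole list. The acetylated regions that held them ranged from 501 bp near Mycn to 10516 bp in Pvt1 in NSC. The 1 BTSC TLX peak lay in H3K27ac of both cultures, as did 86.8% (NSC) and 93.2% (BTSC) of all BTSC TLX peaks taken against each list. The 8 sites that were acetylated in both lists and had TLX in the NSC list alone ranked from 2472 to 7095 of 7458 in NSC.

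Other members of the network, its cofactors and its targets gave the setting for these values. Of 25 further network genes and MYC cofactors and regulators, 21 had an NSC TLX peak within 100 kb, against 55.5% of all coding genes, and 4 had a BTSC peak, against 16.1%, which is near the share in the list. Those 4 were Mxd3, a repressor of the MXD family, Mga, a large MAX partner, Zbtb17, which encodes the MYC partner MIZ1, and the corepressor gene Sin3a; each also had a peak in NSC. Zbtb17 had TLX within 1 kb of a start in both lists. Of the 25, 24 had H3K27ac within 1 kb of a start in both lists, against 50.3% of all coding genes. Most NSC TLX peaks of the whole list lay in H3K27ac, and the part of this in the TLX counts was not tested. On the 1.5-fold rule 4 of the 25 had more H3K27ac-covered bp in BTSC, a share near the 17.8% of all genes. Kat2a, an acetyltransferase gene, had 16970 bp (NSC) and 31312 bp (BTSC), and Cip2a, whose product stabilises MYC, had 2721 and 4653 bp. Mlxipl, a glucose-responsive factor of the MLX branch, had 15398 and 23986 bp, and the MYC cofactor gene Trrap had 8383 and 12664 bp. More covered bp in NSC were found at 0 of 25, against 11.7% of all genes, and the median log2 ratio was 0.16, near the 0.13 of all genes.

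Of 16 well known MYC targets, 12 had an NSC TLX peak within 100 kb and 2, Ncl and Fbl, genes of the nucleolus, had a BTSC peak as well, against 55.5% and 16.1% of all coding genes. H3K27ac was more extensive in NSC at 3 of the 16, against 11.7% of all genes: Ccnd2, encoding a D-type cyclin, with 32727 bp (NSC) and 10368 bp (BTSC), Odc1, the first enzyme of polyamine synthesis, with 5274 and 3388 bp, and Hk2, a hexokinase, with 5792 and 3634 bp. At 0 of 16 was it more extensive in BTSC on that rule, against 17.8% of all genes. Ccnd2 and Hk2 lie on chromosome 6, which had 0.789 times as many covered bp in BTSC as in NSC, and Ncl lies on chromosome 1, where this ratio was 1.66; the part of the chromosomes in these values was not tested. The 5 chromosomes of the 6 genes had ratios from 0.96 to 1.13. The median log2 ratio of the targets was 0.12. Of the 16 targets, 14 had H3K27ac within 1 kb of a start in both lists, against 50.3% of all coding genes. Its part in their TLX counts was not tested.

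**Figure D4:**
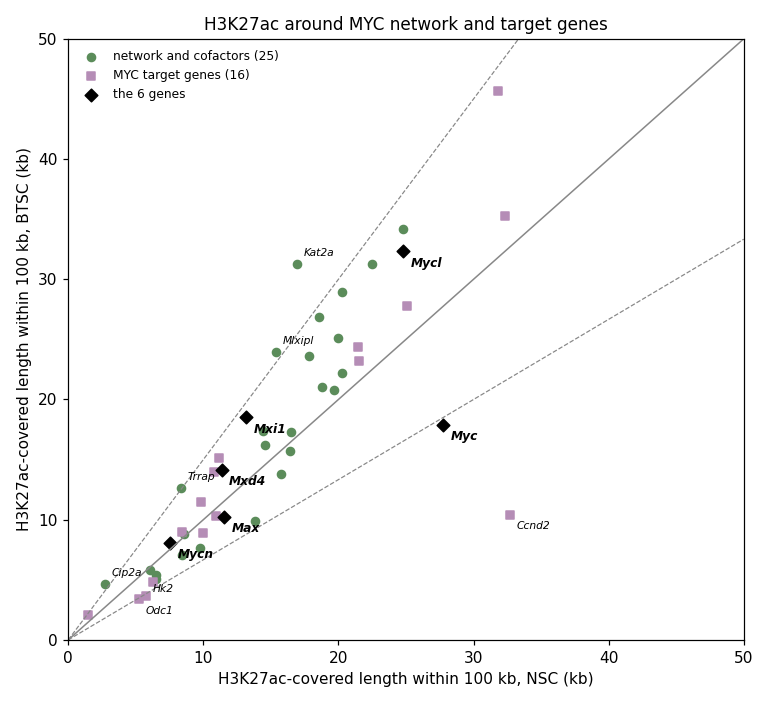
H3K27ac-covered length within 100 kb in NSC (horizontal, kb) and BTSC (vertical, kb), with 1 point per gene: circles for 25 network and cofactor genes, squares for 16 MYC targets, diamonds for the 6 genes. The solid line marks equal length and the dashed lines 1.5-fold; Myc, Ccnd2, Odc1 and Hk2 lie below the lower dashed line.

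The median fold was 4.78 in the NSC TLX list and 5.27 in the BTSC one. The labelled cell type was checked by H3K27ac at the starts of marker genes. Of 9 markers of neural stem or progenitor cells, 8 were acetylated in both lists and Msi1 in neither. Over all protein-coding genes, 50.3% had H3K27ac within 1 kb of a start in both lists. Markers of microglia and of endothelium were at 0 of 5 and 0 of 4 in both lists. Neuron markers were acetylated at 4 of 5 in NSC and 1 of 5 in BTSC, and oligodendrocyte markers at 0 of 4 and 1 of 4; their part in the values of the 6 genes was not tested.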

How the data were processed

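Chromatin immunoprecipitation with sequencing was analysed from 4 peak lists, 1 library each. The submitters' processing notes name Bowtie, ChIPseeker, the build mm10 and bcl2fastq 2.17.1.14. How peaks were called is not given in the sources used here. Each deposited peak has a fold enrichment (a linear ratio), a −log10 p-value and a −log10 q-value; the deposited score repeats the q-value. The authors listed narrow peaks with summits for TLX and broad peaks for H3K27ac.

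Genes came from the RefSeq table of GRCm38.p6 and starts from its promoter table, which has 17492 of 21887 coding genes; for the rest, Myc included, either gene end counted as a start. Peaks were matched by at least 1 bp with Python 3.11.15, numpy 2.4.6 and pandas 2.3.3, and the overlap code was tested on simulated data. The members, the gene lists and the rule for named genes (all TLX peaks, start regions and strongest or widest H3K27ac peaks of the members, and listed genes with TLX in both lists or past 1.5-fold) were chosen with earlier results of these data known. The planned tests were none, since groups have 1 library. Alternatives were windows of 10 and 50 kb, a stricter q, equal numbers of peaks, the nearest gene end, other overlaps, joined peaks and a start window of 2.5 kb; a window of 150 kb, whole peaks and scaling to the chromosome were chosen later, with the data known.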

Additional observations from a re-analysis of the deposited data

How the results depend on the processing

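With windows of 50 kb the Pvt1 site falls outside, so the counts of BTSC TLX peaks, of members with one, of those in H3K27ac and of shared TLX peaks became 0; the log2 ratio of Myc became −0.11, BTSC H3K27ac peaks 23 and NSC covered bp 58620. With 10 kb those TLX counts were also 0, NSC TLX peaks 5, all 5 in H3K27ac, the Myc ratio −0.13, H3K27ac peaks 14 in NSC and 12 in BTSC, and covered bp 34252 and 39487. With a −log10 q of at least 5, 5 NSC TLX peaks lay in H3K27ac, 1 member kept TLX at its start, and BTSC H3K27ac peaks were 21. With equal numbers of peaks, NSC had 2 TLX peaks at 2 members, 1 of them in H3K27ac. Counting peaks by the nearest gene end gave 23 and 20 H3K27ac peaks and 63344 and 58888 covered bp, which turns the order of the cultures, as does the stricter q (88481 and 78872 bp). The Myc ratio was −0.78 at the stricter q and −0.63 with equal numbers and by the nearest end. Settings picked once results were known gave −0.99 within 150 kb, −0.81 with whole peaks and −0.74 relative to its chromosome. The whole-peaks value depended on the window edge. The NSC region at 62089747 to 62094046 crossed that edge and was counted in full, at 4300 bp. The BTSC region overlapping it lay past the edge and was left out, so the whole-peaks value does not show a larger difference. Of genes not past 1.5-fold, Max passed it towards BTSC within 10 kb (0.63), Mxd4 within 50 kb (0.63) and by the nearest end (0.82), and Mycn towards NSC at the stricter q (−1.43), where its BTSC start region drops out; Mxd4 was then at −0.25. Max (0.43 within 50 kb) and Mycn (−0.16 within 50 kb, −0.20 within 10 kb) also changed sign without passing it. Of 116 alternative values, 84 kept their side or stayed within 1.5 times. Among them are settings that could hardly change a value, such as the nearest gene end for Myc. Depth is unknown, so a site listed in 1 culture alone is a statement on called peaks.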

Other observations

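The windows also held acetylated regions at neighbouring genes that hardly differed in width between the lists. The region at Fntb, 99472 bp before the lower end of Max, was 1109 bp wide in NSC and 1048 bp in BTSC, with folds of 7.28 and 7.43. Another region lay over the ends, on the side facing Mxd4, of Haus3, a gene of the mitotic spindle, and Poln, a DNA polymerase gene. It was 1921 bp wide in NSC and 1911 bp in BTSC, with folds of 8.95 and 7.01. The region at the lower end of Trit1 beside Mycl was 7040 and 6988 bp wide, with folds of 8.18 and 6.95.

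The 4 NSC regions without a BTSC counterpart had folds from 2.39 to 4.35, 3 of them in the Mxi1 window, against a median of 4.53 over the NSC list. The 6 BTSC regions without an NSC counterpart had folds from 2.39 to 3.52, against a median of 4.50 over the BTSC list. The NSC region with a fold of 4.35, inside Mxi1, ranked 15627 of 31266, in the middle of its list.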
